A study of Mus musculus with 6 samples.

Results

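The genes described here are the mouse receptor chains for the colony-stimulating factors and the transcription factors that set myeloid identity. They were taken by symbol from the deposited gene table as 4 receptor chains, Csf1r, Csf2ra, Csf2rb and Csf3r, and 5 transcription factors, Spi1, Maf, Runx1, Cebpa and Cebpb. These 9 of the 54532 genes in the table all passed the filter on low counts, which left 12269 genes for testing. RNA was sequenced from BV2 cells, an immortalised mouse microglial line, in 3 libraries with a knockdown of SMEK1, a regulatory subunit of phosphatase PP4, and in 3 libraries labelled WT. No stimulus is labelled in either group, and both were grown in the same serum-containing medium. The sample labels call the second group WT, whereas the series' design text speaks of LV1 and NL knockdown derivatives, in which NL is the group labelled WT. The sources used here do not say if those cells had a control construct. Separate cultures are not stated for the libraries of a group, and the p-values then describe no more than the spread among these libraries, which may be technical. Other differences of the knockdown cells from the WT cells cannot be told apart from the knockdown.

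Microglia and other macrophages depend on CSF1R, a receptor tyrosine kinase whose ligands are CSF1 and IL-34. The receptor for GM-CSF pairs a ligand-specific alpha chain, CSF2RA, with the common beta chain CSF2RB, and the G-CSF receptor CSF3R signals as a homodimer; these cytokine receptors have no kinase of their own and use Janus kinases and STAT factors. PU.1, encoded by Spi1, is the ETS factor that opens many macrophage enhancers, among them those of Csf1r, and it works with the C/EBP factors, with RUNX1 and with IRF8, while the bZIP factor c-Maf restrains growth and shapes the mature macrophage programme.

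Start-site sequences were read for 5 of the 9 genes, namely Csf2ra, Csf3r, Runx1, Cebpa and Cebpb. None was read for Csf1r, Csf2rb, Spi1 or Maf, so Csf2ra is the only called fall with a sequence. Those of Csf2ra, Csf3r and Cebpa are shown as a called fall, an uncalled gene and a called rise beside the core letters that PU.1 binds. Whether these letters go with the direction of change was not tested. All come from RefSeq on GRCm38.p6 and run 5′ to 3′ on the gene's own strand. Csf2ra is the 250 bases before its first transcribed base, chr19:61228419-61228668, minus strand. Csf3r is a 30-base stretch of its window, chr4:126024560-126024589, plus strand, which lies inside the gene model of the deposited table. Cebpa is the 250 bases before its first transcribed base, chr7:35119043-35119292, plus strand. Capitals mark AGGAAG, the PU.1-type ETS core, or its reverse complement CTTCCT, and in Cebpa the TATA box letters TATAAA.
Csf2ra: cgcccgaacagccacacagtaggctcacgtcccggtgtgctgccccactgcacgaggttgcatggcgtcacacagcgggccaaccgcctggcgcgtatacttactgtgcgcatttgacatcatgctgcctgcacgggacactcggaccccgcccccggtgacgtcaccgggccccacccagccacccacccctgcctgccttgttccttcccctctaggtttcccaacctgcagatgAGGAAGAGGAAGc
Csf3r: acctcCTTCCTgagAGGAAGgggctgtcta
Cebpa: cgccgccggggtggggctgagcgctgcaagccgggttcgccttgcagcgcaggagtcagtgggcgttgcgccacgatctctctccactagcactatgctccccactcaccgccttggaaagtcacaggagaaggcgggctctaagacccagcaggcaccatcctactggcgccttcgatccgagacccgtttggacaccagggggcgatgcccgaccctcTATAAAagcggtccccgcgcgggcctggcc
In Csf2ra the letters AGGAAG stood 13 and 7 bases before the start, in direct succession and without overlap. The whole Csf3r window of 250 bases held 4 such matches, at 130, 94, 85 and 20 bases before the start, of which the one at 94 was on the reverse strand. Cebpa had none, and its TATAAA stood 30 bases before the start. Over all 32851 windows of the same length, read on both strands, 29.5% held AGGAAG. The letters TTGCNNAA for C/EBP stood in 9.56% of them, TGNGGT for RUNX in 40.1%, TGCTGA for MAF in 16.1% and TATAAA in 12.4%. The Csf3r window also held TGCTGA 230 bases before the start and TGNGGT, on the reverse strand, at 61 bases. Of the other windows read, the more distal one of Runx1 held 1 AGGAAG, 124 bases before the start. The nearer one of Runx1 and that of Cebpb held none of the 5 motifs. The window of Csf2rb2, a related receptor chain outside the 9 genes, held CTTCCT at 168 bases and TGNGGT, on the reverse strand, at 232 bases. Such a match is a run of letters and not a measured binding site.

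The targeted gene was checked first. Ppp4r3a, which encodes SMEK1, had 2.51, 5.42 and 4.25 CPM (counts-per-million, scaled by the trimmed mean of M-values, TMM) in knockdown A, B and C, against 18.1, 13.6 and 15.3 CPM in WT A, B and C. All 3 knockdown libraries lay below every WT library, with 48, 122 and 94 counts against 335, 227 and 260 counts. The log2 change was -1.94 (SE 0.24, adjusted p = 8.22e-05). Each log2 change here sets the knockdown over WT. Each adjusted p is from the quasi-likelihood test of edgeR, adjusted by Benjamini-Hochberg over all 12269 genes, and a gene was called under 0.05.

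Knockdown libraries held 18627425 to 21131557 counts and WT libraries 18036591 to 18708438 counts, so 1 count stood for 0.0444 to 0.0597 CPM. The 10 most abundant genes took 6.57 to 6.83% of the counts of knockdown libraries and 8.07 to 8.33% of those of WT libraries. Against the label of microglia, the summed level of 12 microglia and macrophage markers was 3281 to 3583 CPM in knockdown libraries and 3569 to 3963 CPM in WT libraries. Among them P2ry12 had 0 counts over the knockdown group and 3 over WT, and Cx3cr1 had 29 and 12, so neither was tested. The 5 markers each of neurons, astrocytes, fibroblasts, endothelium and lymphocytes summed to at most 1.81 CPM in any knockdown library and 0.706 CPM in any WT library. Those of oligodendrocytes summed to 7.15 to 7.41 CPM in the knockdown group and 2.45 to 2.70 CPM in WT, nearly all of it Mbp, with Mog and Olig2 at 0 in every library.

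In the knockdown libraries 5 of the 9 genes were lower and 1 was higher. Csf1r, Csf2ra, Csf2rb, Spi1 and Maf fell, Cebpa rose, and Csf3r, Runx1 and Cebpb were not called. Among all genes tested 19.6% were called lower and 20.5% higher, or 40.1% in either direction. The median log2 change of the 9 genes was -0.29, beside 0.01 over all genes tested. The CPM ranges of the groups did not overlap for 8 of the 9 genes, where 50.9% of all genes tested had no overlap. In bulk samples, fewer cells of a type and less RNA per cell cannot be told apart.

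**Figure D1:**
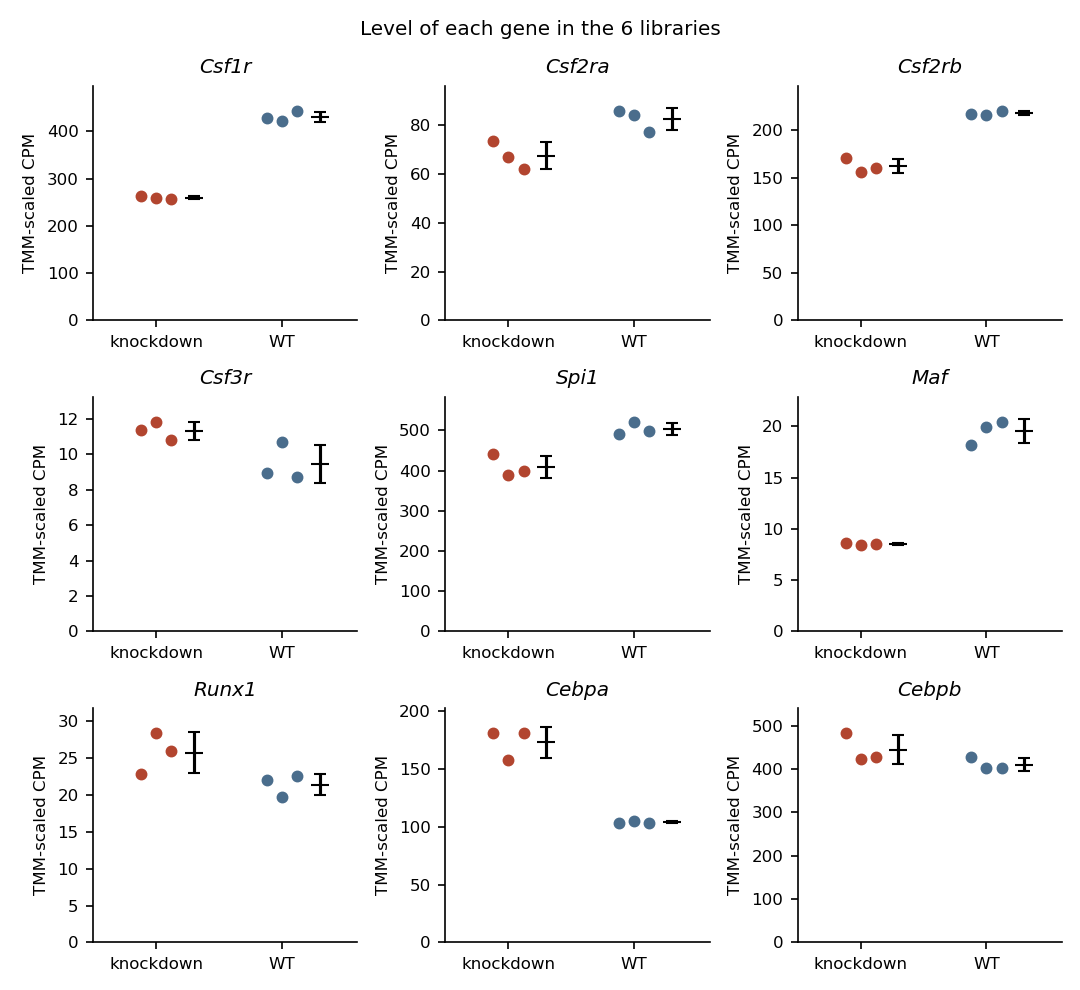
TMM-scaled CPM (vertical axes, linear from 0) of each of the 9 genes in the 3 knockdown libraries (red) and the 3 WT libraries (blue), with the mean and SD of each group in black. The groups are set apart for 8 genes, with Csf1r at 257 to 262 CPM in the knockdown and 421 to 443 CPM in WT, and they overlap for Cebpb.

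Scaling matters for these calls. With library totals in place of TMM the median log2 change of all genes tested moved by 0.159, and 31.7% of genes were called higher and 12.8% lower. Under that scaling 4 of the 9 genes were higher, namely Cebpa, Csf3r, Runx1 and Cebpb, and 3 were lower, namely Csf1r, Csf2rb and Maf. The 9 directions were the same under both scalings. All levels and changes below are on the TMM scale unless FPKM or library totals are named.

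Csf1r (ENSMUSG00000024621, chromosome 18 from 61105572 to 61132149, plus strand, GRCm38) was the receptor with the largest change of the 4. It had 262, 259 and 257 CPM in knockdown A, B and C, against 429, 421 and 443 CPM in WT A, B and C. The highest knockdown library was well below the lowest WT library, and the 3 knockdown values were nearly equal. Csf1r averaged 259.7 ± 2.50 CPM in knockdown libraries and 431 ± 11.1 CPM in WT libraries (SD, n = 3 each), a log2 change of -0.73 (SE 0.07, adjusted p = 1.5e-05). That is 60.3% of the WT level. With library totals the log2 change of Csf1r was -0.57 (adjusted p = 7.97e-05). Of its annotated exon bases 15.1% also belong to exons of Hmgxb3, on the opposite strand, which had 2827 counts in the knockdown group and 2866 counts in WT; without knowing the use of strand, reads there cannot be told apart.

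Both chains of the GM-CSF receptor were lower. Csf2rb, the common beta chain (ENSMUSG00000071713, chromosome 15 from 78325752 to 78353847, plus strand), had 170.2, 155 and 160.1 CPM in knockdown A, B and C, against 217, 216 and 219.8 CPM in WT A, B and C. The WT libraries differed by only a few CPM and all lay above the knockdown libraries. Csf2rb averaged 162 ± 7.60 CPM in knockdown libraries and 217.5 ± 1.99 CPM in WT libraries (SD, n = 3 each), a log2 change of -0.43 (SE 0.07, adjusted p = 0.000756). Csf2ra, the alpha chain (ENSMUSG00000059326, chromosome 19 from 61224402 to 61228418, minus strand), had 73.3, 67.0 and 62.1 CPM in knockdown A, B and C, against 85.7, 84.3 and 77.3 CPM in WT A, B and C. The ranges did not overlap, but knockdown A and WT C lay close to each other. For Csf2ra the averages were 67.5 ± 5.61 CPM in knockdown libraries and 82.4 ± 4.51 CPM in WT libraries (SD, n = 3 each), a log2 change of -0.29 (SE 0.09, adjusted p = 0.0194). The Csf2ra call was lost without knockdown B (adjusted p = 0.0535), knockdown C (adjusted p = 0.129) or WT B (adjusted p = 0.0518), and with library totals (log2 change -0.13, adjusted p = 0.225). Csf2rb kept its call with library totals, at -0.27 (adjusted p = 0.00425).

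Csf2rb2, the beta chain that mice have for IL-3 alone, also fell. It lies at 78282507 to 78305721 of chromosome 15 (minus strand) and averaged 47.9 ± 1.72 CPM in knockdown libraries and 84.1 ± 4.07 CPM in WT libraries (SD, n = 3 each), a log2 change of -0.81 (SE 0.08, adjusted p = 1.36e-05). The transcripts of these 2 genes share 892 stretches of 50 bases, which are 18.4% of those of Csf2rb2 and 12.3% of those of Csf2rb. Counts of either gene are therefore uncertain where the counting could split such reads. The alpha chain of the IL-3 receptor, Il3ra, had 34 counts over the knockdown group and 29 over WT and was not tested, and Il5ra had 0 counts in every library.

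Csf3r, the G-CSF receptor (ENSMUSG00000028859, chromosome 4 from 126024550 to 126044440, plus strand), was the receptor chain that was not called. It had 11.4, 11.8 and 10.8 CPM in knockdown A, B and C, against 8.96, 10.7 and 8.71 CPM in WT A, B and C. The lowest knockdown value was just above WT B, the highest of the WT values. Csf3r averaged 11.3 ± 0.513 CPM in knockdown libraries and 9.45 ± 1.07 CPM in WT libraries (SD, n = 3 each), a log2 change of 0.26 (SE 0.15, adjusted p = 0.191). With library totals it was called higher, at 0.42 (adjusted p = 0.0398).

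Among the ligands, Il34 was much higher and Csf1 was not called. Il34, whose protein binds CSF1R, had 14.5, 12.7 and 13.6 CPM in knockdown A, B and C, against 2.48, 2.27 and 1.88 CPM in WT A, B and C. Every knockdown library held several times the Il34 of any WT library, with 278, 285 and 302 counts against 46, 38 and 32 counts. The log2 change of Il34 was 2.62 (SE 0.18, adjusted p = 9.86e-07). Csf1, the other ligand of the same receptor, averaged 144.5 ± 6.78 CPM in knockdown libraries and 154 ± 1.70 CPM in WT libraries (SD, n = 3 each), with a log2 change of -0.09 (SE 0.07, adjusted p = 0.338) that turned to 0.07 with library totals (adjusted p = 0.451). Per gene length, in the FPKM of the authors, Il34 stood at 6.88 ± 0.578 in the knockdown and 1.13 ± 0.156 in WT, while Csf1 stood at 27.1 ± 1.41 in the knockdown and 29.1 ± 0.335 in WT (SD, n = 3 each). Csf2 and Csf3, which encode GM-CSF and G-CSF, each had 0 counts over the knockdown group, which allows up to 3 counts there, and 1 count over WT. Il3 and Il5 had 0 counts in every library. Intervals and limits of this kind cover counting error only.

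Spi1, which encodes PU.1 (ENSMUSG00000002111, chromosome 2 from 91082390 to 91115756, plus strand), was modestly lower. It had 441, 388 and 398 CPM in knockdown A, B and C, against 491, 520.5 and 498.5 CPM in WT A, B and C. Knockdown A was the closest to WT, and the groups did not overlap. Spi1 averaged 409 ± 28.0 CPM in knockdown libraries and 503 ± 15.4 CPM in WT libraries (SD, n = 3 each), a log2 change of -0.30 (SE 0.08, adjusted p = 0.0113), or 81.3% of the WT level. The Spi1 call was lost without knockdown C (adjusted p = 0.0678) and with library totals (log2 change -0.14, adjusted p = 0.0644). Irf8, a partner of PU.1 in microglia, went the other way: it had 216, 187 and 182 CPM in knockdown A, B and C, against 131, 148 and 139 CPM in WT A, B and C. No library of one group reached the other, and the log2 change of Irf8 was 0.49 (SE 0.09, adjusted p = 0.0011). Among 18 ETS factors and PU.1 partners 13 were tested, with a median log2 change of -0.39. Of these 7 were lower (53.8%, beside 19.6% of all genes tested) and 1, Irf8, was higher (7.69%, beside 20.5%). The higher ones numbered 2 when genes with 1 count in any library were kept. The lower ones included Elk1, a ternary complex factor, at -0.78 (adjusted p = 0.000184), and Etv3, an ETS repressor, at -0.75 (adjusted p = 0.000243). Elf4 had a log2 change of -0.46 (adjusted p = 0.00125) and Ets2 had -0.42 (adjusted p = 0.00185). Spib and Spic, the nearest relatives of Spi1, had at most 5 counts over a group and were not tested.

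Maf fell furthest of the 9 genes. This gene for the bZIP factor c-Maf (ENSMUSG00000055435, chromosome 8 from 115682942 to 115707794, minus strand) had 8.67, 8.40 and 8.54 CPM in knockdown A, B and C, against 18.2, 19.9 and 20.4 CPM in WT A, B and C. The knockdown libraries were almost level with each other and stood far below the WT libraries. Maf averaged 8.54 ± 0.139 CPM in knockdown libraries and 19.5 ± 1.18 CPM in WT libraries (SD, n = 3 each), a log2 change of -1.19 (SE 0.13, adjusted p = 3.37e-05), which is 43.8% of the WT level. With library totals the change of Maf was -1.03 (adjusted p = 0.000163).

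Of 8 genes in the MAF family 6 were tested, with a median log2 change of 0.16. Of these 2 were higher (33.3%, beside 20.5% of all genes tested) and 0 lower (beside 19.6%). By DESeq2, by limma-voom and at an unadjusted p under 0.05 in edgeR, 0 were lower as well. Mafa, a relative of Maf best known from pancreatic beta cells, averaged 9.18 ± 1.53 CPM in knockdown libraries and 2.96 ± 0.327 CPM in WT libraries (SD, n = 3 each), a log2 change of 1.63 (SE 0.20, adjusted p = 7.41e-05).

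Runx1, which is needed for the emergence of blood cells (ENSMUSG00000022952, chromosome 16 from 92601466 to 92826149, minus strand), was not called. It had 22.8, 28.4 and 25.9 CPM in knockdown A, B and C, against 21.97, 19.8 and 22.5 CPM in WT A, B and C. Knockdown A lay just above WT C, so the ranges barely parted. Runx1 averaged 25.7 ± 2.78 CPM in knockdown libraries and 21.4 ± 1.47 CPM in WT libraries (SD, n = 3 each), a log2 change of 0.26 (SE 0.12, adjusted p = 0.0994). It was called higher without knockdown A (0.35, adjusted p = 0.0381) and with library totals (0.42, adjusted p = 0.0274). The 377 tested genes of chromosome 16 had a median log2 change of 0.40, with 49.3% called higher and 5.84% lower, so Runx1 lay below the median of its chromosome; the part of the chromosome in its value was not tested. The chromosomes of the other members had medians between -0.15 and 0.14. The lowest was that of chromosome 19, which carries Csf2ra, with 31.6% of its tested genes called lower and 12.7% higher. The part of that chromosome in the value of Csf2ra was not tested.

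Its paralogues were both lower. Runx3 averaged 56.5 ± 0.735 CPM in knockdown libraries and 79.4 ± 2.12 CPM in WT libraries (log2 change -0.49, SE 0.07, adjusted p = 0.000315). Runx2 averaged 9.35 ± 0.494 CPM in knockdown libraries and 14.5 ± 0.760 CPM in WT libraries (log2 change -0.63, SE 0.14, adjusted p = 0.00378). The 9 tested genes among 10 RUNX partners and corepressors had a median of -0.07. Of these 4 were lower (44.4%, beside 19.6% of all genes tested) and 2 higher (22.2%, beside 20.5%). The higher ones numbered 1 without knockdown C and 4 with library totals, where 31.7% of all genes were higher. Tle4, a Groucho corepressor, fell to 12.4 ± 0.535 CPM in knockdown libraries, against 31.8 ± 2.80 CPM in WT libraries (log2 change -1.36, adjusted p = 5.01e-06). Zfpm1, a cofactor of GATA factors, had -0.61 (adjusted p = 0.00232). Cbfa2t3, a corepressor of the ETO family, had 58 counts over the knockdown group and 6 over WT, a fitted log2 change of 2.92 (adjusted p = 0.00092) from very low levels. Its relative Cbfa2t2 rose by 0.50 (adjusted p = 0.00838), which was no longer called without knockdown C (adjusted p = 0.0529). Cbfb, the obligate partner of all RUNX proteins, named here after its value was seen, had 0.21 (adjusted p = 0.0561), and 0.00215 was its adjusted p with library totals.

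Cebpa was the one called rise among the 9 genes. C/EBP-alpha directs progenitors to the granulocyte and monocyte lineages, and its gene (ENSMUSG00000034957, chromosome 7 from 35119293 to 35121928, plus strand) had 181, 157 and 181 CPM in knockdown A, B and C, against 103, 105 and 104 CPM in WT A, B and C. All knockdown libraries lay far above the tight WT range, with knockdown B the lowest of them. Cebpa averaged 173 ± 13.6 CPM in knockdown libraries and 104 ± 1.13 CPM in WT libraries (SD, n = 3 each), a log2 change of 0.73 (SE 0.08, adjusted p = 3.07e-05), or 1.66-fold. With library totals the change of Cebpa was 0.89 (adjusted p = 7.07e-06).

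Cebpb, the C/EBP factor of inflammatory macrophages (ENSMUSG00000056501, chromosome 2 from 167688915 to 167690418, plus strand), had 483, 422 and 429 CPM in knockdown A, B and C, against 426.5, 401 and 403 CPM in WT A, B and C. WT A lay between the lower knockdown libraries, so the groups overlapped. Cebpb averaged 444.5 ± 33.1 CPM in knockdown libraries and 410.1 ± 14.2 CPM in WT libraries (SD, n = 3 each), a log2 change of 0.12 (SE 0.08, adjusted p = 0.282), and it was called higher with library totals at 0.27 (adjusted p = 0.0115). Of its exon bases 20.7% also belong to Tmem189 on the opposite strand, which had 13549 counts in the knockdown group and 12560 counts in WT. Without knowing the use of strand, reads there cannot be told apart. Within a library the FPKM ratio of Cebpa to Cebpb was 0.214, 0.213 and 0.241 in knockdown A, B and C, against 0.138, 0.1497 and 0.147 in WT A, B and C. These ratios did not overlap, with a log2 difference of 0.62 and an exact two-sided permutation p = 0.1, the smallest that 3 against 3 libraries allow.

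Of the 8 tested genes among 10 C/EBP relatives and partners, 3 were lower and 2 higher, with a median log2 change of -0.23. Over all genes tested 19.6% were lower and 20.5% higher, so the 2 higher genes were near that share. The lower ones numbered 5 by DESeq2 and when genes with 1 count in any library were kept. Ddit3, which encodes the stress-induced CHOP and dimerises with other C/EBP proteins, averaged 138 ± 9.38 CPM in knockdown libraries and 44.3 ± 4.68 CPM in WT libraries (log2 change 1.64, adjusted p = 2.17e-07). Batf3, a bZIP factor of dendritic cells, had 1.05 (adjusted p = 5.11e-06). Cebpe, which drives late granulocyte maturation, averaged 41.5 ± 5.70 CPM in knockdown libraries and 62.5 ± 4.07 CPM in WT libraries (log2 change -0.59, adjusted p = 0.00105). Trib1, a pseudokinase that sends C/EBP-alpha protein to degradation, averaged 6.14 ± 0.896 CPM in knockdown libraries and 9.68 ± 0.229 CPM in WT libraries (log2 change -0.65, adjusted p = 0.00942). Cebpd had -0.35 (adjusted p = 0.0213), a call lost without knockdown B (adjusted p = 0.0629), WT B (adjusted p = 0.0622) or WT C (adjusted p = 0.107) and with library totals (adjusted p = 0.131).

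**Figure D2:**
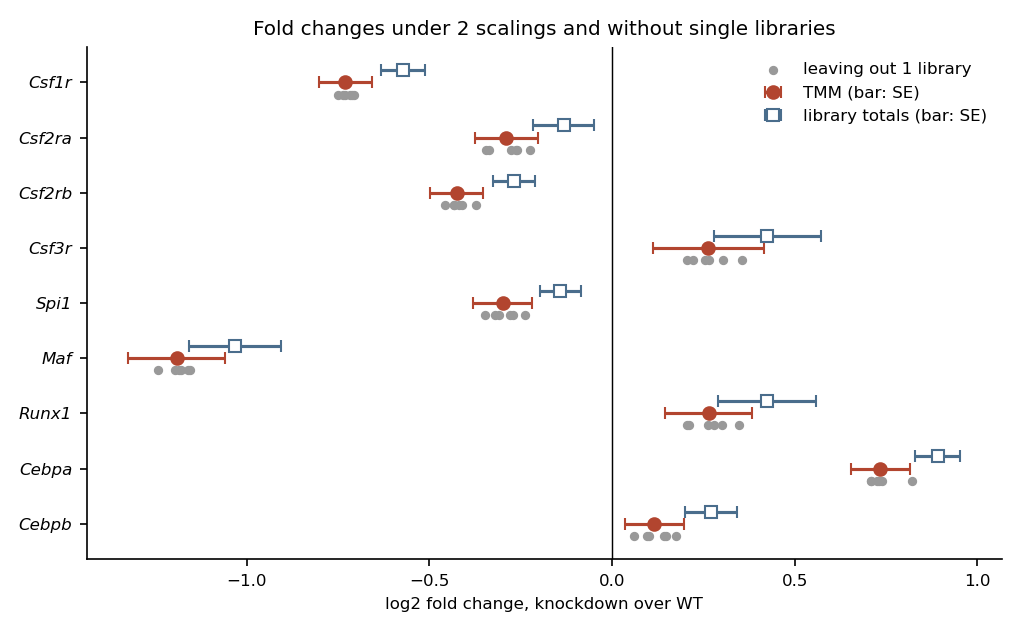
Log2 change, knockdown over WT (horizontal axis), of each of the 9 genes with TMM scaling (filled red circles, bar 1 SE), with library totals (open blue squares, bar 1 SE) and with each of the 6 libraries left out in turn (grey). Library totals move every gene to the right, Maf to -1.03 and Cebpa to 0.89, and no gene crosses 0.

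Levels between genes were compared per gene length, in the FPKM the authors deposited. In the knockdown libraries the order was Cebpb (293 ± 26.0 FPKM), Spi1 (150.4 ± 12.5), Cebpa (65.1 ± 6.00), Csf1r (52.7 ± 1.18), Csf2ra (36.2 ± 3.35), Csf2rb (22.04 ± 1.37), Csf3r (3.11 ± 0.124), Runx1 (2.12 ± 0.197) and Maf (1.03 ± 0.0326), each the mean ± SD of 3 libraries. No neighbours in that order had overlapping ranges. In WT libraries the FPKM order was Cebpb (272 ± 10.03), Spi1 (186 ± 5.41), Csf1r (87.9 ± 2.23), Csf2ra (44.4 ± 2.49), Cebpa (39.3 ± 0.375), Csf2rb (29.8 ± 0.255), Csf3r (2.61 ± 0.294), Maf (2.36 ± 0.137) and Runx1 (1.78 ± 0.123). There the ranges of Csf3r and Maf overlapped. Cebpa thus stood above Csf1r and Csf2ra in the knockdown and below both in WT, and Maf stood below Runx1 in the knockdown and above it in WT. This order within a group does not depend on the scaling between libraries, since each FPKM is divided by 1 constant per library. It does depend on the gene length by which each count is divided. In CPM, without that division, the mean of Cebpa lay below Csf1r and above Csf2ra in both groups. The mean CPM of Runx1 lay above that of Maf in both groups.

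**Figure D3:**
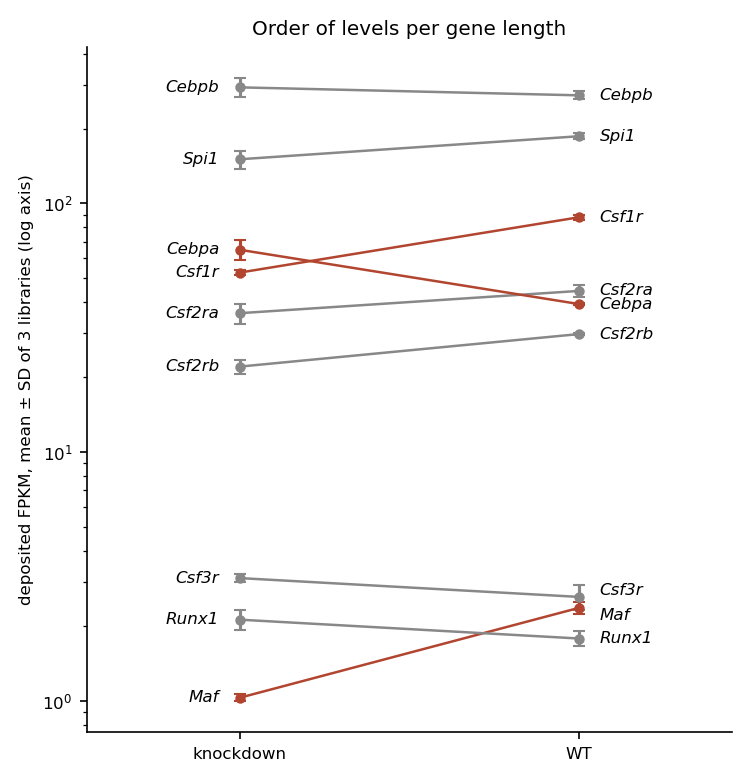
Mean deposited FPKM ± SD over 3 libraries (vertical log axis) of the 9 genes in the knockdown and in WT, joined by lines; red marks Cebpa, Csf1r and Maf. Cebpa stands at 65.1 FPKM in the knockdown and 39.3 in WT. Csf1r stands at 52.7 FPKM in the knockdown and 87.9 in WT, so their order per gene length is exchanged. In CPM the mean of Csf1r is above that of Cebpa in both groups.

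Ratios of these genes within a library do not depend on the scaling between libraries. Of 7 FPKM ratios compared, 6 had groups that did not overlap. Each of these 6 had an exact two-sided permutation p = 0.1 (adjusted p = 0.117 over the 7), and none can pass 0.05 with 3 against 3 libraries. The share of other gene pairs whose ratios do not overlap was not computed. For single genes, 50.9% of those tested had CPM ranges without overlap. The ratio of Csf2ra to Csf2rb, the chains of the GM-CSF receptor, was 1.64 ± 0.0979 in the knockdown and 1.49 ± 0.0943 in WT, with overlapping libraries and a log2 difference of 0.14 (exact permutation p = 0.3). Csf1r to Csf2rb was 2.39 ± 0.0958 in the knockdown and 2.95 ± 0.0499 in WT, a log2 difference of -0.30. The ratio of Csf1r to Spi1, a receptor gene to the factor that acts on it, was 0.351 ± 0.0207 in the knockdown and 0.473 ± 0.0234 in WT, a log2 difference of -0.43. Thus Csf1r was lower relative to both Csf2rb and Spi1 in all knockdown libraries. Csf3r to Csf2rb was 0.141 ± 0.0104 in the knockdown and 0.0877 ± 0.0105 in WT, a log2 difference of 0.69. Runx1 to Spi1 was 0.0142 ± 0.00242 in the knockdown and 0.00956 ± 0.000912 in WT, a log2 difference of 0.56. Csf2rb2 to Csf2rb was 0.455 ± 0.0213 in the knockdown and 0.594 ± 0.0323 in WT, a log2 difference of -0.38, with the shared sequence named above.

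**Figure D4:**
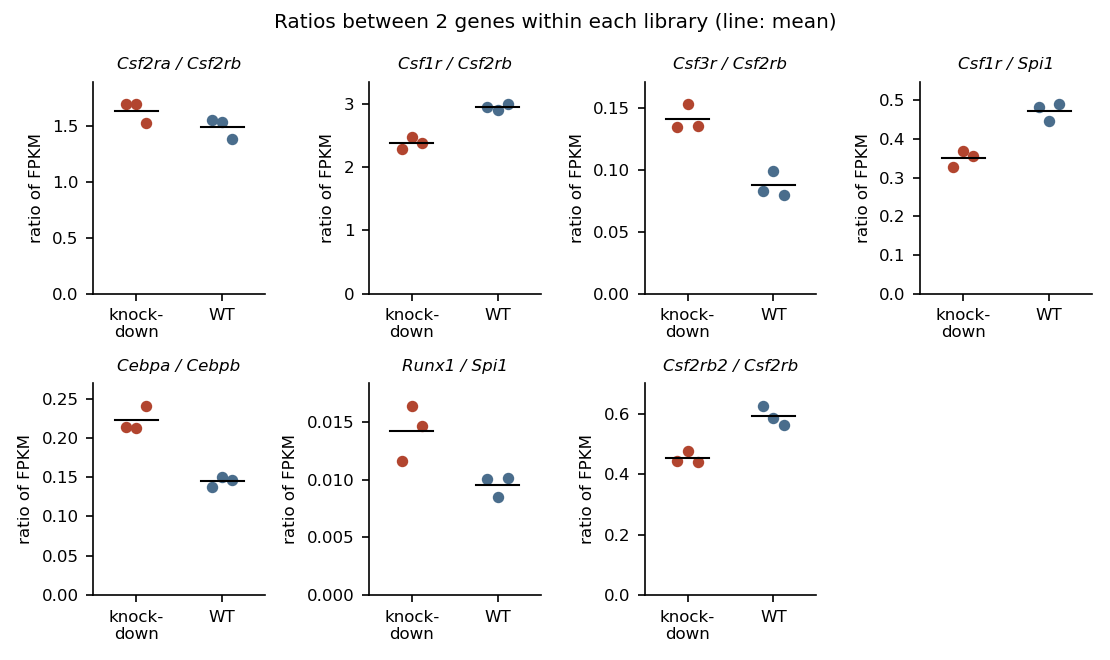
Ratio of the deposited FPKM of 2 genes within each library (vertical axes, linear from 0) for the 3 knockdown libraries (red) and the 3 WT libraries (blue), with the group mean as a line. The groups are apart in 6 of the 7 panels and overlap for Csf2ra to Csf2rb.

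Genes downstream of CSF1R changed in both directions. Of 35 genes of proximal CSF1R signalling, all tested, 11 were lower (31.4%, beside 19.6% of all genes) and 6 higher (17.1%, beside 20.5%), with a median log2 change of -0.20. The lower count was 7 without knockdown B, 5 without knockdown C and 6 without WT C. With library totals it was 5 of the 35, where 12.8% of all genes were lower. Plcg2, a phospholipase that acts beneath CSF1R and TREM2, averaged 129 ± 4.95 CPM in knockdown libraries and 306 ± 14.7 CPM in WT libraries (log2 change -1.25, adjusted p = 3.52e-07). The kinase gene Syk had -0.51 (adjusted p = 0.000654), the adaptor Grb2 had -0.60 (adjusted p = 0.00122) and the adaptor Dok2 had -0.60 (adjusted p = 0.00148). Among the higher genes, Src averaged 10.8 ± 1.74 CPM in knockdown libraries and 3.15 ± 0.358 CPM in WT libraries (log2 change 1.77, adjusted p = 3.2e-05). Cblb, a ubiquitin ligase of activated receptors, had 1.04 (adjusted p = 3.19e-05). Gab1, a docking protein, had 2.25 (adjusted p = 0.00111) at low levels, with 3.00 ± 0.453 CPM in knockdown libraries and 0.620 ± 0.426 CPM in WT libraries.

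Of the 13 tested genes among 14 of the JAK-STAT pathway used by the GM-CSF and G-CSF receptors, 6 were lower (46.2%, beside 19.6% of all genes tested) and 0 higher (beside 20.5%), with a median log2 change of -0.45. No gene was higher at an unadjusted p under 0.05 in edgeR, by DESeq2 or by limma-voom (0 in each). The lower count was 3 without knockdown C. With library totals 3 were lower and 1 higher, where 12.8% of all genes were lower and 31.7% higher. Stat3, the main STAT of the G-CSF receptor, averaged 29.8 ± 4.03 CPM in knockdown libraries and 71.8 ± 2.09 CPM in WT libraries (log2 change -1.27, adjusted p = 3.32e-06). Stat5a, which GM-CSF activates, averaged 22.1 ± 2.34 CPM in knockdown libraries and 35.0 ± 2.52 CPM in WT libraries (log2 change -0.67, adjusted p = 0.000721). Jak2, the kinase bound to CSF2RB, had -1.23 (adjusted p = 0.012) from few counts, a call lost without WT A (adjusted p = 0.0601). Jak3 had -0.45 (adjusted p = 0.013), lost without knockdown C (adjusted p = 0.0842) or WT C (adjusted p = 0.0509) and with library totals (adjusted p = 0.0868).

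Of the 29 tested genes among 30 myeloid genes with known PU.1 or C/EBP control, 14 were lower (48.3%, beside 19.6% of all genes tested) and 2 higher (6.90%, beside 20.5%), with a median log2 change of -0.27. The higher count was 4 without knockdown B, 4 with upper-quartile scaling and 7 with library totals, where 31.7% of all genes were higher. Mpeg1, a pore-forming protein of macrophages, averaged 38.5 ± 7.81 CPM in knockdown libraries and 103.8 ± 4.24 CPM in WT libraries (log2 change -1.43, adjusted p = 4.85e-06). Lyz2, the lysozyme gene of macrophages, averaged 1239 ± 202 CPM in knockdown libraries and 2731 ± 382 CPM in WT libraries (log2 change -1.14, adjusted p = 4.77e-05). Ncf4, a subunit of the phagocyte oxidase, had -0.92 (adjusted p = 1.57e-05) and the sialic acid receptor Cd33 had -0.65 (adjusted p = 3.46e-05). The higher ones were Pirb, an inhibitory receptor, at 1.09 (adjusted p = 0.000208) and Clec7a, the beta-glucan receptor dectin-1, at 0.62 (adjusted p = 0.00587).

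**Figure D5:**
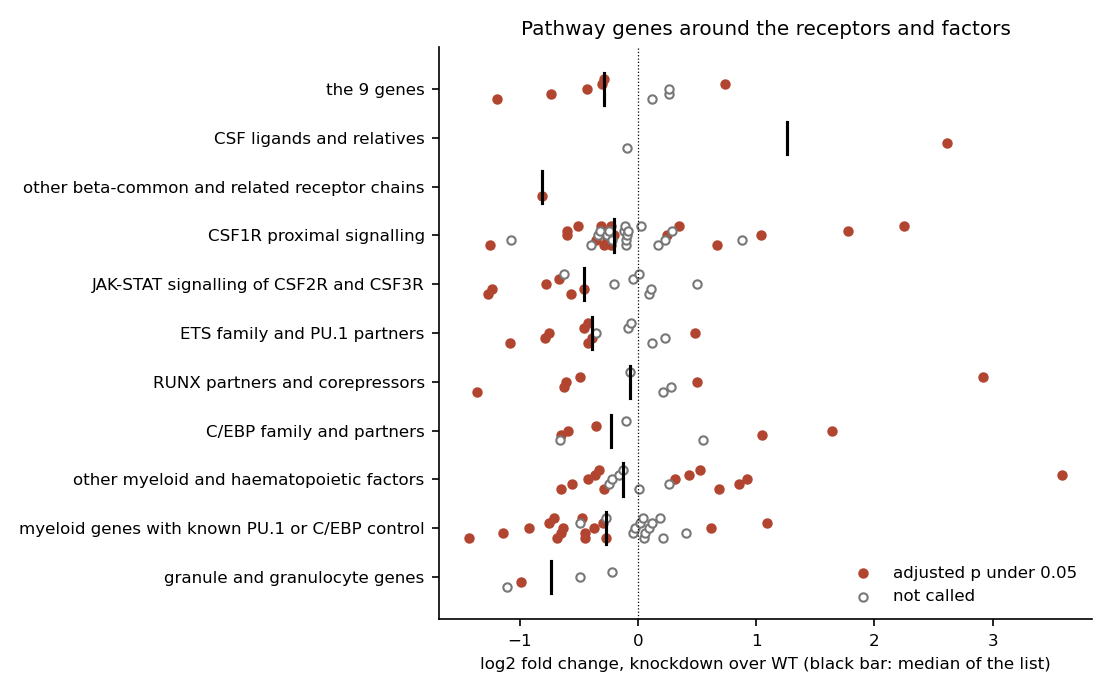
Log2 change, knockdown over WT (horizontal axis), of each tested gene in the 9-gene set and in 10 lists of related genes (rows); filled red points were called at an adjusted p under 0.05, open points were not, and a black bar marks each list's median. Medians lie at -0.29 for the 9 genes, -0.45 for JAK-STAT signalling, -0.39 for ETS factors and PU.1 partners and -0.27 for the myeloid genes. They lie at -0.20 for CSF1R signalling, -0.23 for C/EBP relatives, -0.12 for other myeloid factors and -0.07 for RUNX partners. Lists with few tested genes have 1.26 (CSF ligands, 2 genes), -0.74 (granule genes, 4 genes) and -0.81 (other receptor chains, 1 gene).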

How the data were processed

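RNA of 3 SMEK1 knockdown and 3 WT libraries of BV2 cells was sequenced. The authors deposited whole-number counts per gene, and FPKM values in which each count is divided by gene length and by a constant per library (1.02 to 1.12 times the library total in the knockdown, 0.911 to 0.991 times in WT). The genome build was GRCm38 (mm10), per the submitters' processing notes; the sources used here do not give the aligner, counter, annotation release or use of strand. The test was edgeR 4.0.16 under R 4.3.3 (filterByExpr, TMM, glmQLFit and glmQLFTest, no covariates, Benjamini-Hochberg over 12269 genes). The approximate SE is |log2 change| over the square root of F. The biological coefficient of variation was 0.121, and no libraries agreed within sampling noise. Values after ± are SD, and a log2 change is log2 of knockdown over WT. The scripts were tested on simulated data.

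The 9 genes, the lists of related genes and the tests were chosen with earlier results of these data known. The genes named are the 9, Ppp4r3a, Irf8, each tested relative of a family with at most 5 tested genes, and otherwise the called genes of a list with the smallest adjusted p, up to 4 in each direction. Exon overlaps and shared 50-base stretches come from GENCODE annotation and transcripts. Alternatives were other size factors (DESeq2, upper quartile, library totals), other filters, DESeq2 1.42.0, limma-voom and limma 3.58.1 on log2(FPKM + 1) or log2(FPKM + 0.1) at a mean FPKM of 0.5, a replicate block, an adjusted p of 0.01 and leaving out each library. Some planned results, 1 ratio among them, are not reported here.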

Additional observations from a re-analysis of the deposited data

How the results depend on the processing

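The 9 genes kept their direction under every alternative run, and 147 of their 162 results stayed on the same side of the threshold, while 11 lost a call and 4 gained one. Genes called higher numbered 4 with library totals and 1 to 2 with a library left out, against 1. Genes called lower numbered 3 with library totals, 3 with the replicate block, 3 at an adjusted p of 0.01 and 3 to 5 with a library left out, against 5. Under the block Csf2ra (adjusted p = 0.0509) and Spi1 (0.0684) lost their calls; the cause was not tested. Same-lettered knockdown and WT libraries had deviations from their group means correlated at -0.361 (A), -0.326 (B) and 0.00247 (C). Pairs of different letters ran from -0.129 (knockdown B with WT C) to 0.412 (knockdown B with WT A). Whether libraries of the groups shared a batch was not tested. Csf2ra was also lost with limma on log2(FPKM + 1) without a filter (0.0585). Csf1 changed sign to a log2 change of 0.0656 with library totals. Ratios whose groups did not overlap numbered 6 to 7 with a library left out. Among the lists, lower CSF1R signalling genes numbered 5 with the block and 6 to 7 with limma on FPKM, against 11, and lower JAK-STAT genes 2 with limma on FPKM without a filter, against 6. Higher RUNX partners numbered 1 with limma on FPKM, against 2, and other myeloid factors 4 higher and 3 lower with the block, against 7 and 6. For Maf the log2 change was -0.73 on the log2(FPKM + 1) scale, which understates changes of low genes. At these depths Csf2, Csf3, Il3, Il5, Il3ra and Il5ra were too low to test.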

Other observations

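Among 29 other transcription factors of myeloid and blood cells, 19 were tested, with a median log2 change of -0.12. In the knockdown 7 were higher (36.8%, beside 20.5% of all genes tested) and 6 lower (31.6%, beside 19.6%). Without WT C, 4 were higher and 3 lower. Tfec, a relative of MITF found in macrophages, averaged 9.01 ± 0.579 CPM in knockdown libraries and 0.737 ± 0.258 CPM in WT libraries (SD, n = 3 each), a log2 change of 3.59 (adjusted p = 1.09e-06 by edgeR). Bhlhe41 had a log2 change of 0.53 (adjusted p = 0.000425), Klf4, which promotes monocyte differentiation, had 0.86 (adjusted p = 0.00141), and Zbtb46, a factor of dendritic cells, had 0.92 (adjusted p = 0.00328). Lower factors were Lyl1 at -0.55 (adjusted p = 0.000199), its relative Tal1 at -0.42 (adjusted p = 0.00516) and Id2, an inhibitor of bHLH factors, at -0.65 (adjusted p = 0.000248). Rxra, a nuclear receptor, had -0.32 (adjusted p = 0.00877), a call lost without WT C (adjusted p = 0.0528).

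Granule and granulocyte genes were nearly silent, with 4 of 16 tested. Of these 1 was lower (beside 19.6% of all genes tested) and 0 higher (beside 20.5%). The lower count was 2 without knockdown A and with limma-voom. The higher count was 0 at an unadjusted p under 0.05 in edgeR, by DESeq2 and by limma-voom. Mmp9, a gelatinase, averaged 1.43 ± 0.117 CPM in knockdown libraries and 2.84 ± 0.396 CPM in WT libraries (SD, n = 3 each), a log2 change of -0.99 (adjusted p = 0.00819 by edgeR). Of the 12 microglia and macrophage markers 10 were tested, with a median log2 change of -0.27. Of these 3 were higher (beside 20.5% of all genes tested) and 4 lower (beside 19.6%). The lower ones were Csf1r, described above, Itgam, an integrin chain, at -0.47 (adjusted p = 0.00349), the lysosomal gene Cd68 at -0.37 (adjusted p = 0.0041) and the adaptor Tyrobp at -0.26 (adjusted p = 0.0381). The Tyrobp call was lost without any 1 library other than WT A (adjusted p = 0.0553 to 0.126) and with library totals (adjusted p = 0.193). Tmem119, a surface marker of microglia, averaged 19.3 ± 1.63 CPM in knockdown libraries and 9.65 ± 0.719 CPM in WT libraries (SD, n = 3 each), a log2 change of 1.00 (adjusted p = 0.000158). Trem2, a receptor that signals through Tyrobp, had a log2 change of 0.36 (adjusted p = 0.00597), which was no longer called without WT C (adjusted p = 0.0504).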
